A study of Homo sapiens with 32 samples.

Results

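MMR-proficient-only regions were stretches of the genome where uracil was enriched after 5FdUR in HCT116 cells with restored DNA mismatch repair (MMR), and in no other drug-treated data set used by the definition. They were selected on measured regions of uracil enrichment: bases of chromosomes 1 to 22 that lay in both replicate files of 5FdUR_UGI_MMR, in neither replicate file of 5FdUR_UGI, and in neither the merged file of RTX_UGI nor that of RTX_UGI_MMR, joined where adjacent and kept from 500 bp upwards. This gave 40227 regions with a total of 70.4 Mb. The 2 replicate files of 5FdUR_UGI_MMR shared 75394 intervals of 500 bp or more (212 Mb), and the 15 replicate files of the whole series held 1917332 regions on the same chromosomes.

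In U-DNA-Seq, fragmented genomic DNA is pulled down with ΔUNG, a uracil-binding UNG that cannot cut uracil out, and its coverage is set against that of the input DNA. HCT116 is a human colorectal carcinoma line that lacks MMR; the MMR-proficient derivative carries an added copy of chromosome 3, so the MMR states also differ in chromosome content. In 5FdUR_UGI and 5FdUR_UGI_MMR, MMR-deficient and MMR-proficient cells stably expressing UGI (the inhibitor of the uracil-DNA glycosylase UNG, introduced by retroviral transduction with EGFP and followed by sorting) received 20 µM 5FdUR (5-fluoro-2'-deoxyuridine) for 48 h. In RTX_UGI and RTX_UGI_MMR the same cells received 100 nM raltitrexed (RTX) for 48 h. NT_UGI and NT_UGI_MMR were the UGI-expressing cells without drug, WT was HCT116 with neither UGI nor drug, and K562 was a non-treated leukaemia line with 1 library; each other group had 2 replicates. All drug-treated groups therefore expressed UGI, and each MMR state was represented by 1 cell line. The region files hold no readout that checks MMR status or cell identity, and they give no read counts, so the depth behind each region is unknown. Each replicate file of 5FdUR_UGI_MMR and 5FdUR_UGI covered 17.6% to 18.2% of the autosomal bases. 5FdUR_UGI_MMR replicate 2 stood apart from the other 5FdUR libraries, with a GC content of 42.4% over its regions against 45.2% in 5FdUR_UGI_MMR replicate 1 and 46.2% and 46.3% in 5FdUR_UGI. The paper reports sequencing at BGI or at Novogene, on different instruments and with different read lengths. Platform was not taken into account here, and its part in this difference was not tested.

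Thymidylate synthase makes dTMP from dUMP. Its inhibition by the active form of 5FdUR or by raltitrexed raises dUTP over dTTP, and DNA polymerases then place uracil where thymine would stand. UNG removes such uracil and starts base excision repair, which UGI blocks, whereas MMR acts on mispaired bases behind the replication fork and resynthesises stretches of the new strand. The assay reads uracil over stretches of DNA. UNG also binds fluorouracil, so in the 5FdUR libraries, which define every MMR-proficient-only region, uracil and fluorouracil in DNA cannot be told apart.

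The sequence at the centre of the 2 longest and 3 of the most enriched MMR-proficient-only regions is shown to give the base composition that the pull-down met there. Each line holds 200 bases of the plus strand of GRCh38, with T in capitals as the positions that uracil could replace on that strand. U-DNA-Seq does not resolve which of these positions held uracil. The longest region spanned 25300 bp at chr4:10335401-10360700, contained no annotated gene and lay 79180 bp from ZNF518B. The second in length, with 23200 bp at chr9:16324701-16347900, overlapped the non-coding gene LINC03041 and lay 61603 bp from BNC2. Next came 23000 bp at chr12:5846801-5869800 inside ANO2, which encodes a calcium-activated chloride channel; 566 of its bases were exonic and 102 of them coding. The central bases of the chr4 and chr9 regions, at chr4:10347951-10348150 and chr9:16336201-16336400, were:
chr4 intergenic region: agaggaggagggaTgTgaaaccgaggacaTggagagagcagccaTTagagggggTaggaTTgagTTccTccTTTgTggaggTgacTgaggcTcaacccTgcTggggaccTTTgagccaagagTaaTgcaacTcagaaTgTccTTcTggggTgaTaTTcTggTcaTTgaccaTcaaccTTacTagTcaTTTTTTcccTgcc
chr9 region in LINC03041: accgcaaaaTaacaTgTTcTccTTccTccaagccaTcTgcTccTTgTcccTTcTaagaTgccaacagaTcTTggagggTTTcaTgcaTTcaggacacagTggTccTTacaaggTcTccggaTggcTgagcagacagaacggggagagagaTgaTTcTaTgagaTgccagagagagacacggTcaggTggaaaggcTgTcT
The chr4 and chr9 stretches held 51 and 46 T with a GC content of 50.5% each, above the 43.1% and 47.5% of the whole regions. The whole ANO2 region had a GC content of 44.4%.

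The 3 regions with the highest log2 values, judged by the lower of both 5FdUR_UGI_MMR replicates, were 600 to 1100 bp long. A pair of regions of 700 and 600 bp in DMBT1, which encodes a secreted mucosal glycoprotein, had the same log2 values, 0.48 in replicate 1 and 0.46 in replicate 2. They started at positions 122614901 and 122624001 of chromosome 10. A region of 1100 bp in PAX7, a transcription factor gene of muscle progenitors, reached 0.50 and 0.42 at chr1:18702901-18704000 and held 203 coding bases. All 3 directly bordered a region of a 5FdUR_UGI replicate. Their central bases, at chr10:122615151-122615350, chr10:122624201-122624400 and chr1:18703351-18703550, were:
DMBT1 region starting at 122614901: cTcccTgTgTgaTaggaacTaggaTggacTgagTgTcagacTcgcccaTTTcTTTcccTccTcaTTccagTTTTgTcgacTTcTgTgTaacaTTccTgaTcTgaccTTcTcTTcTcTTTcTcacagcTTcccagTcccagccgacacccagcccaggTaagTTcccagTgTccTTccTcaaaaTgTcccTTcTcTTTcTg
DMBT1 region starting at 122624001: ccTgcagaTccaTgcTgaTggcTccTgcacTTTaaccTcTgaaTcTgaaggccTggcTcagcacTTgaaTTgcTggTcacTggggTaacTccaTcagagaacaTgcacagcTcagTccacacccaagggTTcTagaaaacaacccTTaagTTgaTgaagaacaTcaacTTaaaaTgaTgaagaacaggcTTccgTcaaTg
PAX7 region: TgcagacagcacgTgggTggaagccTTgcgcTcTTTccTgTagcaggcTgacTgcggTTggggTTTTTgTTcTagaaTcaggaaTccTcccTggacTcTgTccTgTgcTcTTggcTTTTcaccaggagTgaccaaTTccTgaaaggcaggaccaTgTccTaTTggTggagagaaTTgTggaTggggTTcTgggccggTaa
These stretches held 66, 46 and 57 T, with a GC content of 50%, 47% and 53.5%.

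The deposited log2 value, in a column without heading, was read as that of pull-down over input signal, averaged along a whole region of a file, and MMR-proficient-only regions within the same file region share it. Over the MMR-proficient-only regions its median was 0.29 in 5FdUR_UGI_MMR replicate 1 (range 0.20 to 0.59) and 0.21 in replicate 2 (range 0.13 to 0.47). These values chose the regions and are given as a description. The lowest values listed in the files were 0.20 for replicate 1 and 0.13 for replicate 2 of 5FdUR_UGI_MMR, but 0.25 and 0.14 for the replicates of 5FdUR_UGI. The authors had tuned these limits library by library to obtain similar total lengths in the replicates and merged data of the same sample. A base outside a file is not a base without uracil. A log2 of 0.25 or more in both 5FdUR_UGI_MMR files was reached by 9106 regions (22.6%), and 2759 regions (6.86%) lay within 0.05 of the lowest value in both. Across the 40227 regions the log2 values of the replicates correlated weakly (Pearson's r = 0.18, Spearman's rho = 0.12), with points that share libraries and often share an enriched region.

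**Figure D1:**
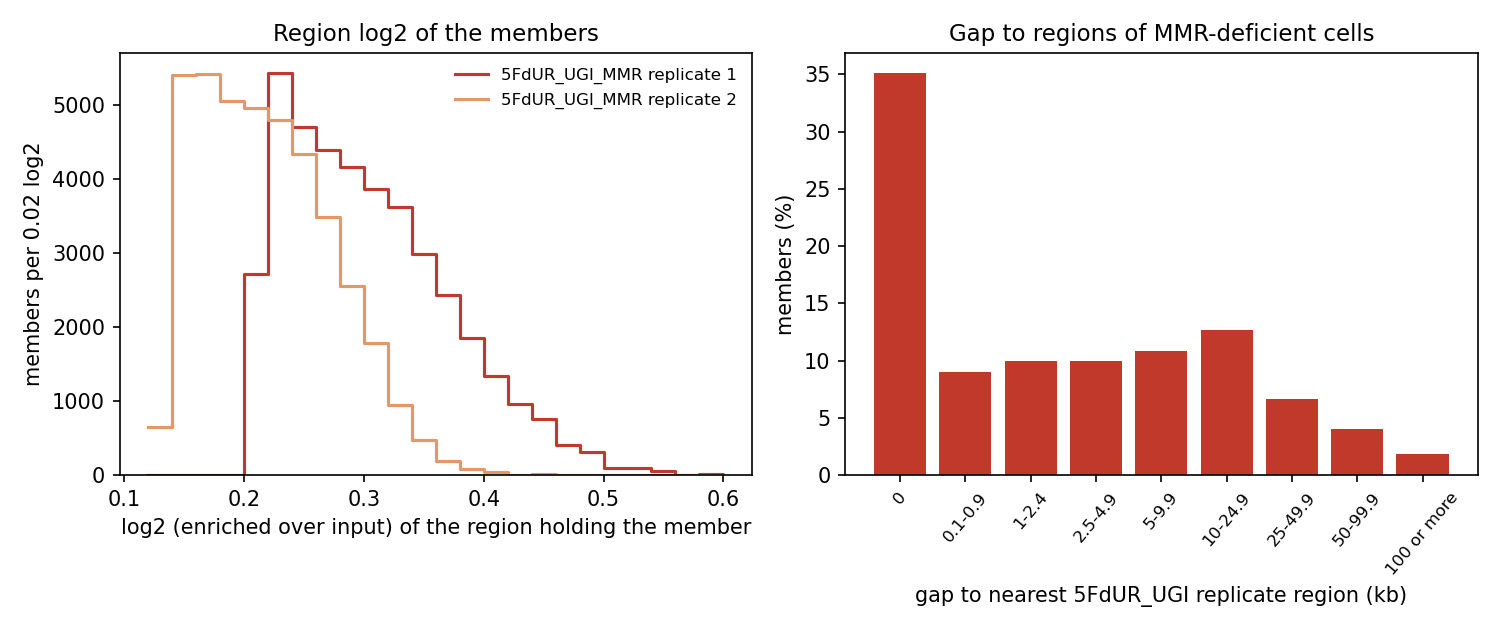
Left, number of MMR-proficient-only regions per 0.02 step of the log2 value (enriched over input coverage) of the enriched region that holds them, in 5FdUR_UGI_MMR replicates 1 and 2. Right, share of regions (%) by the gap in kb to the nearest region of either 5FdUR_UGI replicate. Values in replicate 1 begin at 0.20 and in replicate 2 at 0.13, and 35.1% of the regions had no gap.

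The number of intervals fell with length on both sides of the limit of the definition: 5692 candidate intervals of 400 bp were left out and 4547 of 500 bp were kept. The median length was 1200 bp, 2096 regions (5.21%) reached 5000 bp and 8 reached 20000 bp. Regions of 2000 bp or more made up 28.4% of the number but 60.3% of the bases. The candidates below 500 bp amounted to 6.81 Mb.

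Of the 222 Mb of bases in both 5FdUR_UGI_MMR files, 31.7% were MMR-proficient-only. A share of 34.5% lay in both 5FdUR_UGI replicates, and 22.7% in a merged RTX file. Many MMR-proficient-only regions bordered enrichment that the MMR-deficient cells had as well: 14124 (35.1%) had no gap to a region of a 5FdUR_UGI replicate, 18483 (45.9%) lay at least 2500 bp away, the reach to each side of the 5000 bp over which coverage had been smoothed, and 10112 (25.1%) lay at least 10000 bp away. The median gap was 1800 bp to a 5FdUR_UGI region and 137000 bp to a merged RTX region. As many as 25509 (63.4%) were complete intervals of both 5FdUR_UGI_MMR files, and the others were remainders after bases of the other files had been taken away.

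The other files of the drug-treated groups pool, or were pooled into, the files of the definition, so their overlap was largely fixed by it and is given as a description. The merged 5FdUR_UGI_MMR file covered 100% of the MMR-proficient-only bases and the merged 5FdUR_UGI file 1.27%. Single RTX libraries covered 0.665% and 0.808% (RTX_UGI replicates 1 and 2) and 4.41% and 1.70% (RTX_UGI_MMR replicates 1 and 2).

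The 10 longest regions had, apart from the 3 described above, these locations. A region of 22600 bp lay in an intron of CCBE1, a gene of lymphatic vessel growth, at chr18:59498001-59520600. Another of 22000 bp overlapped LINC00877 and the pseudogene UBE2Q2P9 on chromosome 3. A stretch of 21900 bp without any gene lay 50986 bp from BMP2, which encodes a bone morphogenetic protein, and 50700 bp from the nearest 5FdUR_UGI region. MASP1, a protease gene of the lectin pathway of complement, held 21800 bp with 507 coding bases, and TRPC7, a cation channel gene, 20400 bp with 742. CACNA1C, which encodes the pore of an L-type calcium channel, held 19800 bp, and NEDD9, the gene of a focal adhesion adaptor, 19700 bp with 1599 coding bases. Their log2 values ran from 0.32 to 0.48 in replicate 1 and from 0.24 to 0.33 in replicate 2, and their GC content from 42.8% to 47.5%. None of the 10 overlapped a region of the 6 non-treated HCT116 libraries or of K562. Over all 40227 MMR-proficient-only regions, 85.5% overlapped no region of the 6 HCT116 libraries. RTX_UGI_MMR replicate 1 covered 10.6% of the MASP1 region.

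Besides DMBT1 and PAX7, the 10 regions with the highest log2 values included 3 neighbours on chromosome 4, of 3100, 6500 and 3900 bp, between 131029 and 142329 bp from WDR1, which encodes an actin-disassembly factor. They had values of 0.41 to 0.42 in replicate 1 and 0.45 in replicate 2, and RTX_UGI replicate 1 covered 41.9% of the shortest. BCL11B, a zinc-finger gene of T-cell development, held 2300 bp with 0.42 and 0.41. The others were regions of 1200 bp on chromosome 12, 6300 bp in the antisense gene DIRC3-AS1 on chromosome 2 and 500 bp in LINC01526 on chromosome 6. RTX_UGI_MMR replicate 1 covered the LINC01526 region completely, and NT_UGI replicate 2 covered 23.8% of the DIRC3-AS1 region.

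MMR-proficient-only bases were unevenly spread over the genome. Among 2765 windows of 1 Mb, 639 (23.1%) held none, the median share was 0.95% and the highest 37.5%. A share of 50% of all MMR-proficient-only bases lay in 11.3% of the windows. The window with the highest share, on chromosome 10 from 126000001 to 127000000, held 111 regions over ADAM12, which encodes a disintegrin metalloprotease, C10orf90, FANK1 and DOCK1, the gene of a Rac activator. The 5FdUR_UGI_MMR replicates covered 68.6% and 73.2% of it. The 5FdUR_UGI replicates covered 0.86% and 21.9%, and both merged RTX files had no region in it.

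**Figure D2:**
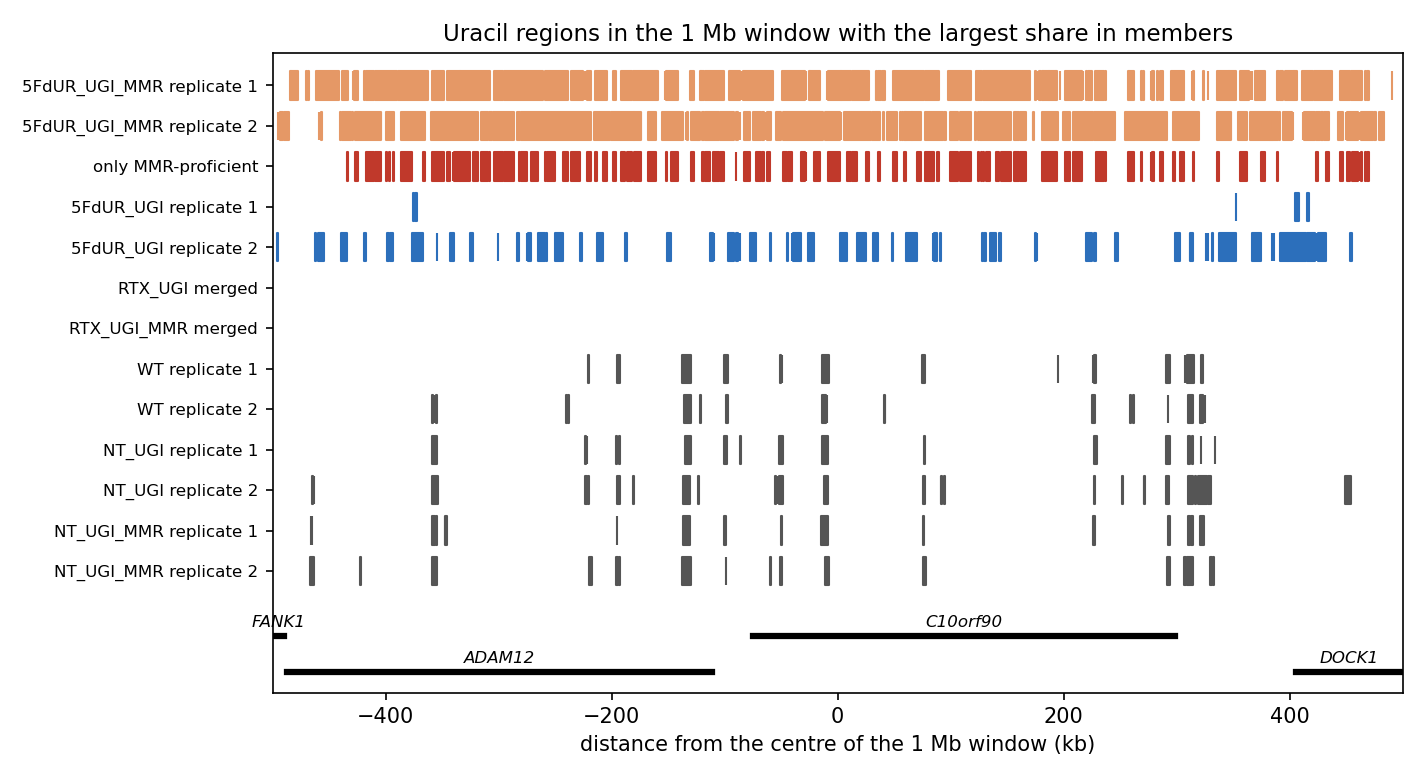
Uracil regions in the 1 Mb window of chromosome 10 with the largest share in MMR-proficient-only regions, as distance in kb from the window's centre; each row is 1 region file, the red row the MMR-proficient-only regions, and black lines protein-coding genes. The 5FdUR_UGI_MMR replicates cover 68.6% and 73.2% of the window, the 5FdUR_UGI replicates 0.86% and 21.9%, and the 6 non-treated libraries 3.96% on average.

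The next window, on chromosome 2 from 12000001 to 13000000, had a share of 34.3% in 121 regions and held TRIB2, a pseudokinase gene, as its only protein-coding gene. On chromosome 12 from 5000001 to 6000000 the share was 32.5%, over ANO2, VWF (von Willebrand factor), NTF3 (a neurotrophin) and KCNA5 (a potassium channel). The window of chromosome 2 from 217000001 to 218000000 reached 27.3% and held TNS1, the gene of an actin-binding adhesion protein. The window of chromosome 11 from 128000001 to 129000000 reached 26.99% and held ETS1 and FLI1, neighbouring genes of ETS-family transcription factors, with KCNJ1, KCNJ5, ARHGAP32 and TP53AIP1. In these 4 windows the 5FdUR_UGI_MMR replicates covered 48.9% to 70.2%, 5FdUR_UGI replicate 1 covered 1.02% to 13.1% and 5FdUR_UGI replicate 2 covered 11.8% to 22.4%. In all 5 windows 5FdUR_UGI replicate 2 covered more than replicate 1, and the highest coverage by a merged RTX file was 5.70%. The windows were ranked by bases outside the 5FdUR_UGI and merged RTX files, so low coverage by these files was largely fixed. GC content in the 5 windows was 40.3% to 44.01%.

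At least 500 bp of MMR-proficient-only bases lay in 3416 of 19111 autosomal protein-coding genes, 17.9% of them. The count followed gene length: it was 3.18% of genes under 10000 bp and 63.2% of those of 200000 bp or more. FRMD4A, which encodes a FERM-domain scaffold of epithelial junctions, held the most bases, 251 kb of its 818 kb (30.7%) in 94 regions at chr10:13643706-14462142. CACNA1C followed with 231 kb of 727 kb (31.7%), ANO2 with 218 kb of 414 kb (52.5%) and SYN3, a synapsin gene, with 207 kb of 551 kb (37.6%). These 4 genes were covered to 65.4% to 90.9% by 5FdUR_UGI_MMR replicate 1 and to 0.314% to 18.2% by 5FdUR_UGI replicate 1. 5FdUR_UGI replicate 2 covered 9.03% to 50.7% of them, with the highest value in CACNA1C.

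RUNX1, the gene of a haematopoietic transcription factor, held 179 kb, but in it 10.4% of bases lay in regions shared by both MMR states and the 5FdUR_UGI replicates covered 42.3% and 41.4%. ADAM12 held 166 kb (44.1%), KAZN, which encodes a desmosome-associated protein, 165 kb (13.4%), C10orf90 158 kb (42.2%), PLXNA4, a semaphorin receptor gene, 153 kb (29.04%) and the read-through gene IQCJ-SCHIP1 129 kb (13.8%). PLXNA4 and C10orf90 had no base in a region of 5FdUR_UGI replicate 1 and 15.4% and 18.7% in replicate 2.

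Among genes of at least 20 kb, TNFSF15, which encodes a cytokine of the tumour necrosis factor family, had the largest share of its length in MMR-proficient-only regions. It amounted to 73.8% of 21.4 kb, at chr9:114784652-114806039 on the minus strand. The 5FdUR_UGI_MMR replicates covered 99.1% and 77.1% of TNFSF15, and neither 5FdUR_UGI replicate had a region in it. Its neighbour TNFSF8, the gene of the CD30 ligand, had 56.4%. FLI1 followed TNFSF15 with 58.2% of 127 kb, covered to 93.1% and 78.2% by 5FdUR_UGI_MMR and to 0 and 17.5% by 5FdUR_UGI. FAM24B had 57.1%, and the overlapping gene model ENSG00000286088, which shares bases with it, 48.3%. EHD3, the gene of an endocytic recycling ATPase, had 55.1%, IL1RL1, which encodes the receptor of interleukin-33, 52.5%, EDN3 (endothelin-3) 50.3% and SLC8A3, a sodium-calcium exchanger gene, 48.7%. No base of EDN3 lay in a region of 5FdUR_UGI. With 9 of these 10 genes, ANO2 being the exception, 5FdUR_UGI replicate 1 had no region in the gene. The definition leaves out 5FdUR_UGI bases, so 5FdUR_UGI coverage of the genes in both rankings was in part fixed by it. This coverage is given as a description. 5FdUR_UGI replicate 2 covered 17.6% of all autosomal bases, and from 0 of TNFSF15 and EDN3 to 50.7% of CACNA1C. When regions within 2500 bp of a 5FdUR_UGI region were left out, the bases of 16 of the 19 genes in both rankings fell by more than 1.5 times, all but TNFSF15, EDN3 and SLC8A3. The fall was nearly complete in CACNA1C, from 231 to 12.4 kb, and complete in EHD3, from 19.5 kb to 0. RUNX1 fell from 179 to 32.5 kb and SYN3 from 207 to 42.1 kb, while TNFSF15 and EDN3 kept all their bases.

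Of 22 genes of DNA mismatch repair, 3 held at least 500 bp, among them RFC3, which encodes a subunit of the PCNA clamp loader, with 5200 bp in 5 regions, and MSH3, which encodes a mismatch-recognition protein, with 700 bp. Of 17 genes of uracil excision and base excision repair, NEIL3, a DNA glycosylase gene, alone passed, with 1100 bp, and UNG held none. Among 24 genes of thymidylate and dUTP metabolism these were DPYD, which degrades fluoropyrimidines, with 8058 bp, DCTD, which makes dUMP by deamination, with 700 bp, and UCK2, a uridine kinase gene, with 800 bp, while TYMS, the gene of thymidylate synthase, held none. The counts were 13.6%, 5.88% and 12.5% of the 3 lists, against 17.9% of all protein-coding genes. The shares of all bases of the 3 lists were 0.394%, 0.252% and 0.561%, against 2.21% over all protein-coding genes.

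Of 20 p53 target genes 3 passed, XPC with 5300 bp (15.8% of the gene), ZMAT3 with 7200 bp and TIGAR with 5100 bp, and 2.78% of the list's bases were MMR-proficient-only. The count is 15% of the list, against 17.9% of all protein-coding genes, and the share of bases compares with 2.21% over all genes. XPC, a damage sensor of nucleotide excision repair, was covered to 88.9% and 67.8% by 5FdUR_UGI_MMR and to 0 and 30.6% by 5FdUR_UGI. Of 16 genes of the intestinal epithelium 3 passed, among them the stem cell genes LGR5 with 9700 bp and OLFM4 with 2600 bp, which is 18.8% of the list and 1.43% of its bases.

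The gene families are to be read against 17.9% of all protein-coding genes with 500 bp or more and 2.21% of their bases. Interleukins and their receptors had 6.28% of their bases in MMR-proficient-only regions (18 of 78 genes with 500 bp or more), and potassium channels 5.23% (31 of 94). Solute carriers had 3.89% (73 of 371), collagens 3.73% (19 of 48), genes named ZNF 2.90% (133 of 504) and olfactory receptors 2.42% (25 of 415). Cadherins and protocadherins had 0.988% of bases although 48 of 91 passed, with a median gene length of 105 kb against 27.9 kb over all genes. Keratins had 0.894% (4 of 55) and HOX genes 0.776% (1 of 39). The median share per gene was 0 in each of the 14 lists except cadherins and protocadherins (0.38%), and it was 0 over all genes. No test was made of these lists.

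MMR-proficient-only regions lay away from start sites and exons more than other 5FdUR regions did. Of their bases 39.8% lay in protein-coding genes (all autosomal bases: 45.3%), 2.45% in their exons (3.80%) and 0.826% in coding sequence (1.24%), while 24.7% lay in lncRNA genes (19.0%). The lncRNA share exceeded that of the whole chromosome on 21 of 22 autosomes. Within 1 kb of a transcription start site lay 0.686% of the MMR-proficient-only bases, 1.27% of all autosomal bases, 2.33% of the bases of 5FdUR regions shared by both MMR states and 7.003% of those of 5FdUR regions only in MMR-deficient cells. The latter 2 sets were formed in the same way: 18025 shared regions (40.1 Mb) lay in all 4 5FdUR replicate files and in neither merged RTX file, and 11552 MMR-deficient-only regions (16.4 Mb) in both 5FdUR_UGI files, in neither 5FdUR_UGI_MMR file and in neither merged RTX file. The share near start sites was lower in the MMR-proficient-only regions than in either set on all 22 autosomes. Exons of protein-coding genes held 4.42% of the shared and 6.72% of the MMR-deficient-only bases. All autosomal bases weighted to the GC content of the MMR-proficient-only regions had 1.36% near start sites, 18.7% in lncRNA genes and 46.6% in protein-coding genes. For these features the contrasts with the shared and MMR-deficient-only sets were not matched for GC content.

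Of 33725 RefSeq promoters on these chromosomes (GRCh38.p14), 688 (2.04%) had their start site in an MMR-proficient-only region; these regions hold 70.4 Mb of the 2756 Mb of known autosomal bases. Those promoters had a median GC content of 49.3%, against 58.7% over all promoters and 68% for the 951 with a start site in an MMR-deficient-only region. The 221.7 Mb in both 5FdUR_UGI_MMR files held 3475 start sites (10.3%), and the larger 290.5 Mb in both 5FdUR_UGI files 7624 (22.6%).

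The MMR-proficient-only bases had a GC content of 42.9%, compared with 41.0% for all autosomal bases, 49.04% for the shared and 47.2% for the MMR-deficient-only regions. It was above that of the whole chromosome on 20 of 22 autosomes. The value rested on 5FdUR_UGI_MMR replicate 1: when the definition used only replicate 2 for the MMR-proficient cells, the GC content fell below that of all autosomal bases by 0.82 percentage points, whereas with only replicate 1 it was 1.74 points above. Without 5FdUR_UGI replicate 2 in the definition it was 3.63 points above. The ratio of observed to expected CpG was 0.198, lower than in all autosomal bases (0.241), the shared (0.269) and the MMR-deficient-only regions (0.371) on all 22 autosomes.

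Across classes of GC content of 5 kb windows, the share of bases in MMR-proficient-only regions was highest at an intermediate content. It rose from 0.267% at 30 to 34% GC to 5.04% at 44 to 46% and fell to 0.487% at 56 to 70%. The share in shared regions still rose to 6.42% at 54 to 56%, and that in MMR-deficient-only regions was highest in the last class, with 2.61%. At 56 to 70% GC the 5FdUR_UGI_MMR replicates covered 34.3% and 16.2% of the bases and the 5FdUR_UGI replicates 47.8% and 58.7%. At 34 to 36% GC they covered 3.95% and 11.8%, against 2.30% and 5.15%. 5FdUR_UGI_MMR replicate 2 was thus flatter over GC content than the other 3 libraries, and the part of this in the composition of the regions was not tested.

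Chromosome 3 was the chromosome added to the MMR-proficient cells. MMR-proficient-only regions took 2.45% of its bases and 2.56% of the other autosomes, a ratio of 0.958, and chromosome 3 ranked 12 of 22. The shares ran from 1.66% on chromosome 17 to 3.92% on chromosome 20, followed by 3.44% on chromosome 12 and 3.39% on chromosome 10. On every autosome they were larger than the share of MMR-deficient-only regions, from 1.35 times on chromosome 19 to 6.38 times on chromosome 12. The size of each set depends on the limit of each library and on how far replicate files overlap. The 5FdUR_UGI_MMR files had 221.7 Mb in common and the 5FdUR_UGI files 290.5 Mb. A larger set is therefore no measure of more uracil in MMR-proficient cells. Coverage was scaled to the genome and divided by input, and chromosome copy number was not measured here.

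The 6 non-treated HCT116 libraries had no part in the definition and served to ask whether the MMR-proficient-only regions were already enriched in uracil without drug. Regions of WT covered 2.32% and 2.25% of their bases, regions of NT_UGI 1.91% and 2.33%, and regions of NT_UGI_MMR 1.95% and 2.45% (replicates 1 and 2). The 6 values were close to each other and all far below the same libraries' coverage of all autosomal bases, 11.3% to 11.6%. In 34390 of the regions (85.5%) no non-treated library had a region, and 204 (0.507%) were touched by all 6. Enrichment in both replicates at the same 100 bp bin was found in 0.73% of MMR-proficient-only bins for WT (all autosomal bins: 6.36%), 0.699% for NT_UGI (6.27%) and 0.778% for NT_UGI_MMR (6.54%). Bins enriched in all 6 libraries made up 0.209% of them and 2.5% of all bins. K562, with 1 library and no test, covered 2.18% of the MMR-proficient-only bins and 11.2% of all.

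The mean coverage by the 6 libraries was 2.20% ± 0.221 (SD, n = 6) of MMR-proficient-only bases and 11.5% ± 0.145 of all autosomal bases. The mean log2 ratio was -2.39 ± 0.13 (SD), a coverage 5.23-fold lower, in 6 of 6 libraries (two-sided exact sign-flip permutation test over libraries, p = 0.03125, Benjamini-Hochberg adjusted over 3 tests 0.03125, the smallest p that 6 libraries can give). GC content moved with this difference. Weighted within classes of 1% GC, all autosomal bases had a coverage of 3.41%, and the ratio was -0.63 ± 0.085, or 1.55-fold lower, again in 6 of 6 libraries (exact p = 0.03125, adjusted 0.0469). The log2 ratio was -0.27 when 5FdUR_UGI_MMR replicate 1 was left out of the definition and -1.96, -2.51 and -2.73 without 5FdUR_UGI_MMR replicate 2, 5FdUR_UGI replicate 1 and 5FdUR_UGI replicate 2.

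**Figure D3:**
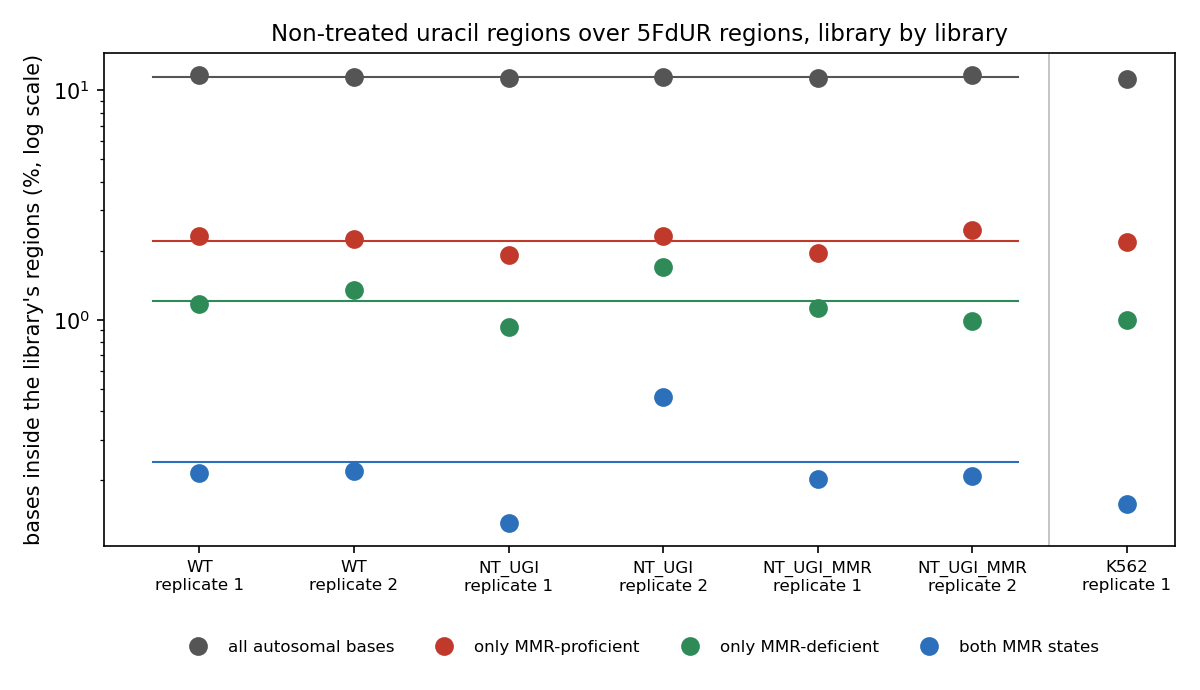
Share of bases (%, log scale) inside the regions of each non-treated library, for all autosomal bases, MMR-proficient-only, MMR-deficient-only and shared 5FdUR regions. Points are single libraries, lines the means of the 6 HCT116 libraries, and K562 stands apart as another cell line with 1 library. MMR-proficient-only regions lie at 1.91% to 2.45%, shared regions at 0.129% to 0.460%.

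Compared with the 5FdUR regions shared by both MMR states, MMR-proficient-only regions were covered more by non-treated libraries. The shared regions had 0.239% ± 0.113 (SD, n = 6), and the mean log2 ratio was 3.31 ± 0.52, or 9.89-fold higher in the MMR-proficient-only regions in 6 of 6 libraries (exact sign-flip test, p = 0.03125, adjusted 0.03125). The values of the libraries in the 2 sets did not overlap. The sets differ in stringency by definition, since shared regions had to lie in all 4 5FdUR replicate files. Their median log2 in 5FdUR_UGI_MMR replicate 1 was 0.37, against 0.29 in the MMR-proficient-only regions. The part of this in the difference was not tested. Within GC classes, over 95.7% of the bases, the means were 1.35% and 0.754%, 1.87-fold higher in 6 of 6 libraries (exact p = 0.03125, adjusted 0.0469). NT_UGI replicate 2 covered 0.460% of the shared regions and the other libraries 0.129% to 0.219%. With a replicate left out of the definition of both sets the ratio was 3.57 and 4.49 (without 5FdUR_UGI_MMR replicates 2 and 1) and 2.01 and 2.36 (without 5FdUR_UGI replicates 1 and 2).

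The MMR-deficient-only regions had a non-treated coverage of 0.932% to 1.69%, on average 1.21% ± 0.279 (SD, n = 6). Coverage of the MMR-proficient-only regions was 1.85-fold higher, with a mean log2 ratio of 0.89 ± 0.29, in 6 of 6 libraries (exact sign-flip test, p = 0.03125, adjusted 0.03125). Within GC classes the call was lost: the means were 1.896% and 1.956%, the mean log2 ratio was -0.02 ± 0.30, and it was above 0 in 3 of 6 libraries (exact p = 0.8125). It also depended on the replicates that defined the sets, with a log2 ratio of -2.35 without 5FdUR_UGI replicate 1, -0.03 without 5FdUR_UGI replicate 2 (exact p = 0.594), and 3.81 and 1.33 without 5FdUR_UGI_MMR replicates 1 and 2.

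Among the non-treated libraries themselves, the MMR states had the same mean to the precision printed. The 2 NT_UGI_MMR libraries averaged 2.20% ± 0.356 (SD) and the 4 libraries of MMR-deficient cells 2.20% ± 0.198, a difference of -0.00046 percentage points (two-sided exact permutation test over 15 arrangements, p = 1; the smallest p it allows is 0.0667). The NT_UGI_MMR values of 1.95% and 2.45% spanned nearly the whole range of the 6, and the difference between the means was smaller than this spread; a p of this size does not show that the states are alike. Without NT_UGI_MMR replicate 1 the difference was 0.25 points and without replicate 2 it was -0.25 points. The MMR-deficient libraries pooled WT, without UGI, and NT_UGI, whereas both NT_UGI_MMR libraries came from cells expressing UGI. NT_UGI alone had 1.91% and 2.33%.

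The MMR-proficient-only regions that non-treated libraries did touch were poorer in GC. The 5837 regions overlapping at least 1 of the 6 libraries had a GC content of 38.4%, against 43.7% in the 34390 others, and 28.3% against 24.0% of their bases lay in lncRNA genes. By chromosome, mean non-treated coverage of the MMR-proficient-only bases ran from 0.246% on chromosome 19 to 3.77% on chromosome 4. The regions at least 2500 bp from every 5FdUR_UGI region had a GC content of 42.3% and the nearer ones 43.3%, with 25.4% and 24.2% of bases in lncRNA genes and 0.566% and 0.784% within 1 kb of a start site.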

How the data were processed

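Of the 32 human cell line samples of the series, 22 U-DNA-Seq region files on GRCh38 were used, 15 of single replicates and 7 of merged replicates. In the authors' pipeline, reads were aligned, filtered and turned into coverage tracks of enriched and input DNA in 100 bp bins smoothed over 5000 bp, and regions above a log2 limit tuned for each library were deposited, so that region edges are blurred over the smoothing length. The deposited log2 value of a region, in a column without heading, was read as the mean over that region of pull-down over input signal. The submitters' processing notes name BWA 0.7.17-r1194, SAMtools 1.9-50, Picard and deepTools 3.2.1. Tracks, inputs and narrow peaks were not used here.

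Regions of chromosomes 1 to 22 were placed on the 100 bp grid, intersected by the definition given above, and annotated with GENCODE 44 and RefSeq promoters. Coverage of a set by a library is the percent of its bases in the library's regions. Python 3.11.15, NumPy 2.4.6, SciPy 1.17.1, pandas 2.3.3 and matplotlib 3.10.9 were used, and the steps were tested on simulated data. The 6 non-treated libraries, unused by the definition, were 2 biological replicates each of WT, NT_UGI and NT_UGI_MMR, pooled over UGI and MMR state. Exact sign-flip permutation tests over them had Benjamini-Hochberg adjustment over 3 tests at a threshold of 0.05. Their p describes agreement among libraries on fixed region sets. MMR states were compared by an exact permutation test.

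Regions named were the 10 longest, the 10 with the highest lower log2 of both 5FdUR_UGI_MMR replicates, and the 5 richest 1 Mb windows. Genes named were the 10 with most bases, the 10 with the largest share among those of at least 20 kb, and members of the 5 pathway and cell type lists with at least 500 bp; TYMS and UNG were added for context. A few of the genes and a sequence that these rules select are not reported here. Regions, gene lists and comparisons were chosen with earlier results of these data known. Alternatives were the minimum length, the files in the definition, the distance to 5FdUR_UGI regions, a log2 limit, GC classes, chromosome 3 and each replicate left out.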

Additional observations from a re-analysis of the deposited data

Results flagged for a closer look

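NT_UGI replicate 2 covered 0.460% of the bases of 5FdUR regions shared by both MMR states, while the other 5 non-treated HCT116 libraries covered 0.129% to 0.219%. The gap to the nearest library exceeded Dixon's 95% critical value for a group of this size, a limit that chance alone passes in about 5% of groups. Leaving this library out moved the mean log2 ratio of MMR-proficient-only over shared regions from 3.31 to 3.5004. In the MMR-proficient-only regions the same library covered 2.33%, inside the range of the others.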

How the results depend on the processing

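The number of MMR-proficient-only regions was 60537 with a minimum of 200 bp, 11413 (42.4 Mb) with 2000 bp, 18483 (31.7 Mb) at 2500 bp or more from every 5FdUR_UGI region and 23676 with a log2 of at least 0.2 in both files, and 45064 to 111590 regions (81.2 to 253 Mb) when 1 of the 4 defining replicates was left out. Across all definitions the lower non-treated coverage relative to all autosomal bases kept its direction. Its log2 ratio ranged from -2.73 to -0.27 with a replicate left out, and was -2.76 with the merged non-treated files. The ratio to shared regions was 2.01 to 4.49 and that to MMR-deficient-only regions -2.35 to 3.81 with a replicate left out; the latter was -0.03 without 5FdUR_UGI replicate 2 and -0.024 within GC classes. Leaving out a non-treated library raises the smallest possible p to 0.0625, so these calls are lost by construction. GC classes for the comparisons with the other 5FdUR sets, and those for lncRNA genes, start sites, CpG and single genes, were chosen after seeing the data. The GC difference was -0.82 to 3.63 points with a replicate left out.

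The difference between MMR states in the non-treated libraries was 0.011 points with 200 bp, 0.041 at 2500 bp or more, 0.0059 without chromosome 3, and -0.25 to 0.25 with a replicate left out (0.014 and 0.099 without 5FdUR_UGI replicate 1 and 5FdUR_UGI_MMR replicate 2, 0.039, 0.017 and 0.041 without WT replicates 1 and 2 and NT_UGI replicate 2). With the replicate number as a replicate block it was -0.00046 points (exact permutation test over 9 arrangements, p = 1, smallest possible p 0.111); the labels do not say what a number shares. Of 19 genes named for their bases, 16 fell by more than 1.5 times at 2500 bp or more from every 5FdUR_UGI region. TNFSF15, EDN3 and SLC8A3 did not. In EHD3 0 kb were left and in CACNA1C 12.4 kb. What depth limits cannot be given, since the region files hold no read counts.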
